A study of Danio rerio with 10 samples.

Results

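Histones are the proteins around which DNA is wound. The genes chosen here encode a linker histone, variants of the core histone H2A and an H3 histone. A total of 7 zebrafish (Danio rerio) genes were chosen by name: h1m, h2ax, h2ax1, macroh2a2, h2az2a, h2az2b and hist2h3c. Matched by symbol with case ignored, 4 of the 7 were found among the 32574 genes of the deposited table, namely h2ax, h2ax1, MACROH2A2 (written in capitals in the name table) and hist2h3c. The other 3, h1m, h2az2a and h2az2b, matched no row by symbol and are not described. A further 15 genes of the table with histone names serve here as the nearest comparison. The table gives no positions for its genes.

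RNA was sequenced from Danio rerio gametes and embryos at 10 stages. The libraries were labelled sperm, oocyte, 1-cell, 4-cell, 16-cell, 64-cell, 128-cell, 256-cell, 1000-cell and sphere, the last a blastula stage. Each stage had 1 library, and the labels give no genotype, strain, age, treatment or number of pooled animals or embryos for any of them. Replicate spread was therefore not measured, and every interval below is an exact 95% interval for counting error alone. Levels are RPKM, reads scaled for gene length and library depth, so they are shares of a library's RNA and not amounts per embryo. Fewer cells of a type and less RNA per cell cannot be told apart in them.

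Core histone variants take the place of the usual histones in part of the nucleosomes and change how the DNA there is packed or marked. H2A.X is phosphorylated beside DNA breaks and during meiotic recombination, macroH2A carries a large extra domain and is known from silenced chromatin, and H2A.Z sits at promoters, in zebrafish also in sperm and cleavage embryos. Linker histones bind between nucleosomes, and h1m is known as the maternal linker histone of the zebrafish. Most canonical histone mRNAs end in a stem-loop and not in a poly(A) tail, and the library kit used is known to select tailed RNA. What that selection did to the level of each gene was not tested. Histone genes also have many near-identical copies, and how reads that fit several copies were counted is not given in the sources used here, so single-gene values, those of hist2h3c above all, are uncertain to that extent.

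The reads behind each value were worked back from the table, with depths between 37762530 reads (1-cell) and 113972795 reads (4-cell). For the oocyte, 8 of 9 listed oocyte markers in the table stood at 1 RPKM or more, with a summed level of 1580 RPKM, against 5 of 9 and 28.3 RPKM in sperm. The sperm library held 8 of 9 spermatid and tail markers at 1 RPKM or more, against 1 of 9 in oocyte. It held all 11 meiotic and premeiotic germ cell markers, summing to 2806 RPKM, against 8 of 11 and 323 RPKM in oocyte. It also held all 14 markers of somatic testis cells, such as insl3 and gsdf, summing to 1517 RPKM, against 3 of 14 and 235 RPKM in the oocyte, where insl3 and CYP11A1 were at 0. Markers of follicle and steroidogenic cells, which partly overlap these, were at 1 RPKM or more for 9 of 11 genes in sperm against 3 of 11 in oocyte, and blood markers for 2 of 5 in each gamete and 0 of 5 in 1-cell. Sperm values therefore belong to a library with testis cell transcripts, and the part of those cells in the results was not tested. The 16-cell library stood above both its neighbours, 4-cell and 64-cell, for 56% of genes.

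The gene h2ax1, one of 2 H2A.X genes chosen and 898 bp long by the recovered length, was the most abundant of the 4 in all 10 libraries. Its level was 675 RPKM in sperm, 37.4 in oocyte, 23.5 in 1-cell, 22.0 in 4-cell, 38.6 in 16-cell, 26.9 in 64-cell, 36.0 in 128-cell, 26.7 in 256-cell, 32.0 in 1000-cell and 77.5 in sphere. Sperm was thus highest and sphere next. The 7 libraries labelled by cell number, 1-cell to 1000-cell, lay within a 1.75-fold range. They are called the cleavage libraries below, whatever their developmental period. In sperm h2ax1 ranked at the 99.7th percentile of all genes, and at its lowest, in 256-cell, at the 88.7th. Between neighbours in the order of its levels the counting intervals overlapped for 4 of 9 pairs: 16-cell with oocyte, oocyte with 128-cell, 64-cell with 256-cell, and 1-cell with 4-cell.

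The gene h2ax (612 bp), also an H2A.X gene, was measured at 14.2 RPKM in sperm, 2.42 in oocyte, 0.779 in 1-cell, 0.903 in 4-cell, 3.15 in 16-cell, 1.45 in 64-cell, 1.31 in 128-cell, 2.77 in 256-cell, 3.84 in 1000-cell and 24.8 in sphere. Here sphere was highest and sperm next, with intervals that did not overlap each other or any other library. The 1000-cell, 16-cell, 256-cell and oocyte levels formed a middle run of overlapping neighbours, and 64-cell, 128-cell, 4-cell and 1-cell a lower run. The values rest on 18 reads in 1-cell and 1216 reads in sphere, so the lowest levels are the least precise.

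The H3 gene hist2h3c (500 bp) was measured at 11.7 RPKM in sperm, 0.659 in oocyte, 0.265 in 1-cell, 0.491 in 4-cell, 1.79 in 16-cell, 0.832 in 64-cell, 0.789 in 128-cell, 0.956 in 256-cell, 0.676 in 1000-cell and 17.7 in sphere. As for h2ax, sphere was highest and sperm next, and 16-cell stood apart from the 7 lower libraries, whose neighbouring intervals overlapped. The 1-cell value rests on 5 reads.

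MACROH2A2 (1994 bp) was measured at 26.5 RPKM in sperm, 0.119 in oocyte, 0.106 in 1-cell, 0.202 in 4-cell, 0.266 in 16-cell, 0.362 in 64-cell, 0.326 in 128-cell, 0.149 in 256-cell, 0.402 in 1000-cell and 0.663 in sphere. Sperm was the one library above 1 RPKM. From oocyte to sphere between 8 and 106 reads were counted, and among the 8 libraries below sphere every neighbouring pair in the order of levels had overlapping intervals.

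**Figure D1:**
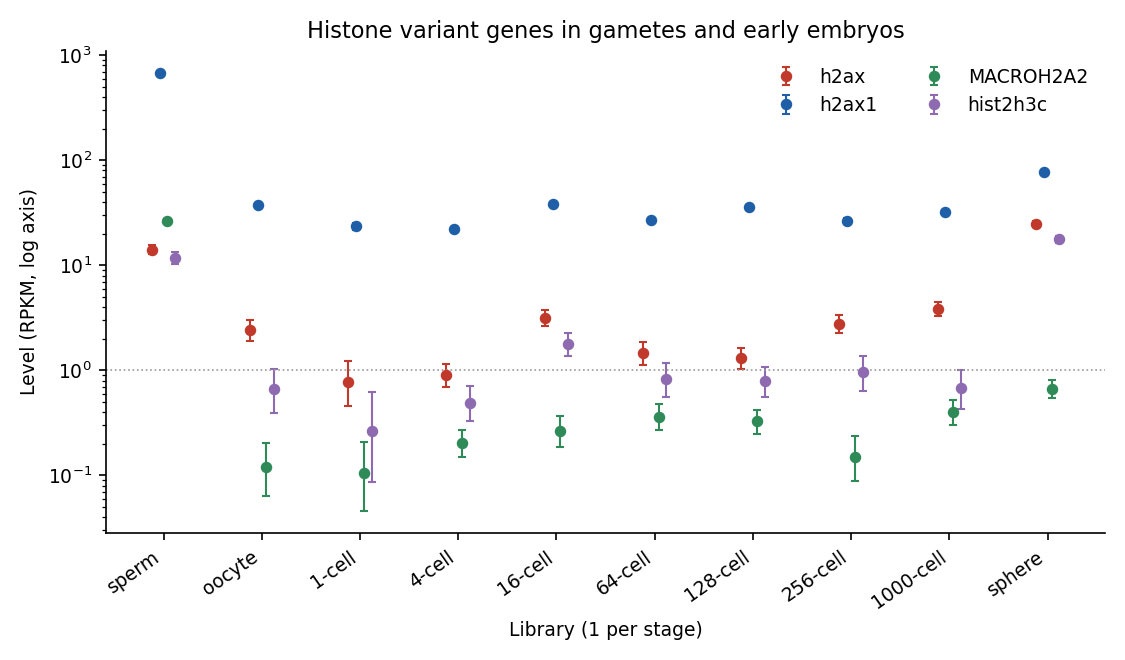
Level of the 4 chosen histone genes found, in each library, in RPKM on a log axis, with 1 point per gene and library. Bars show the exact 95% counting interval, and the dotted line marks 1 RPKM. h2ax1 lies highest in every library, MACROH2A2 exceeds 1 RPKM in sperm (26.5), and h2ax and hist2h3c are highest in sphere (24.8 and 17.7).

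The sperm library was set against the oocyte library to compare the gametes. All 4 passed upward in sperm by the rule used throughout, a 4-fold change read as a difference of 2 or more in log2(RPKM + 1), among genes at 1 RPKM or more in either library. Of all 17364 genes so measured, 40.5% passed, 31.5% higher in sperm and 9.08% lower, and the median difference was 1.22. MACROH2A2 was 222-fold higher in sperm (interval 130 to 418), with 26.5 RPKM in sperm against 0.119 in oocyte. h2ax1 was 18.0-fold higher (17.2 to 18.9), hist2h3c 17.7-fold (11.0 to 30.4) and h2ax 5.85-fold (4.58 to 7.54). On the log2 scale the differences were 4.62 for MACROH2A2, 4.14 for h2ax1, 2.93 for hist2h3c and 2.15 for h2ax. Each exceeded the median of all genes. From their oocyte levels MACROH2A2 (0.119 RPKM), hist2h3c (0.659) and h2ax (2.42) could not have passed downward, since even a complete loss falls short of the rule. MACROH2A2 and hist2h3c were measured through sperm alone. Under median ratio scaling, which lowered the median of all genes by 0.83, h2ax no longer passed (1.15). With a pseudocount of 5, neither h2ax (1.37) nor hist2h3c (1.56) passed.

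Among the other 15 histone genes, 14 were measured in the gametes. Of these, 5 were at least 4-fold higher in sperm and 0 lower, beside 31.5% and 9.08% of all genes. Under median ratio scaling they were 5 and 4 of 12, where 19.6% and 17.7% of all genes passed. The 5 of the main scaling were H1-10, histh1l1, H3-3B, hist2h2l and H2BK1. In oocyte H2BK1, hist2h2l, h1l1, h2ax2, h3c13a, hist1h2a3 and hist1h2a4 had at most 1.40 RPKM. From there they could not have passed downward, since even a complete loss falls short of the rule. The linker histone gene H1-10 had 129 RPKM in sperm against 3.43 in oocyte. The H2B gene H2BK1 had 6.80 RPKM in sperm against 0.156 in oocyte (43.6-fold, 18.3 to 136), the oocyte value resting on 5 reads. The H3.3 gene H3-3B stood at 780 RPKM in sperm against 15.4 in oocyte, whereas h3f3a, h3f3b.1 and h3f3d, also listed as H3.3 genes, stood at 341, 42.1 and 509 RPKM in sperm against 679, 87.5 and 1119 RPKM in oocyte. The gene listed as H2AZ2 had 272 RPKM in sperm against 565 in oocyte. Whether it corresponds to h2az2a or h2az2b is not given by the name table, so it was kept apart from the 7.

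**Figure D2:**
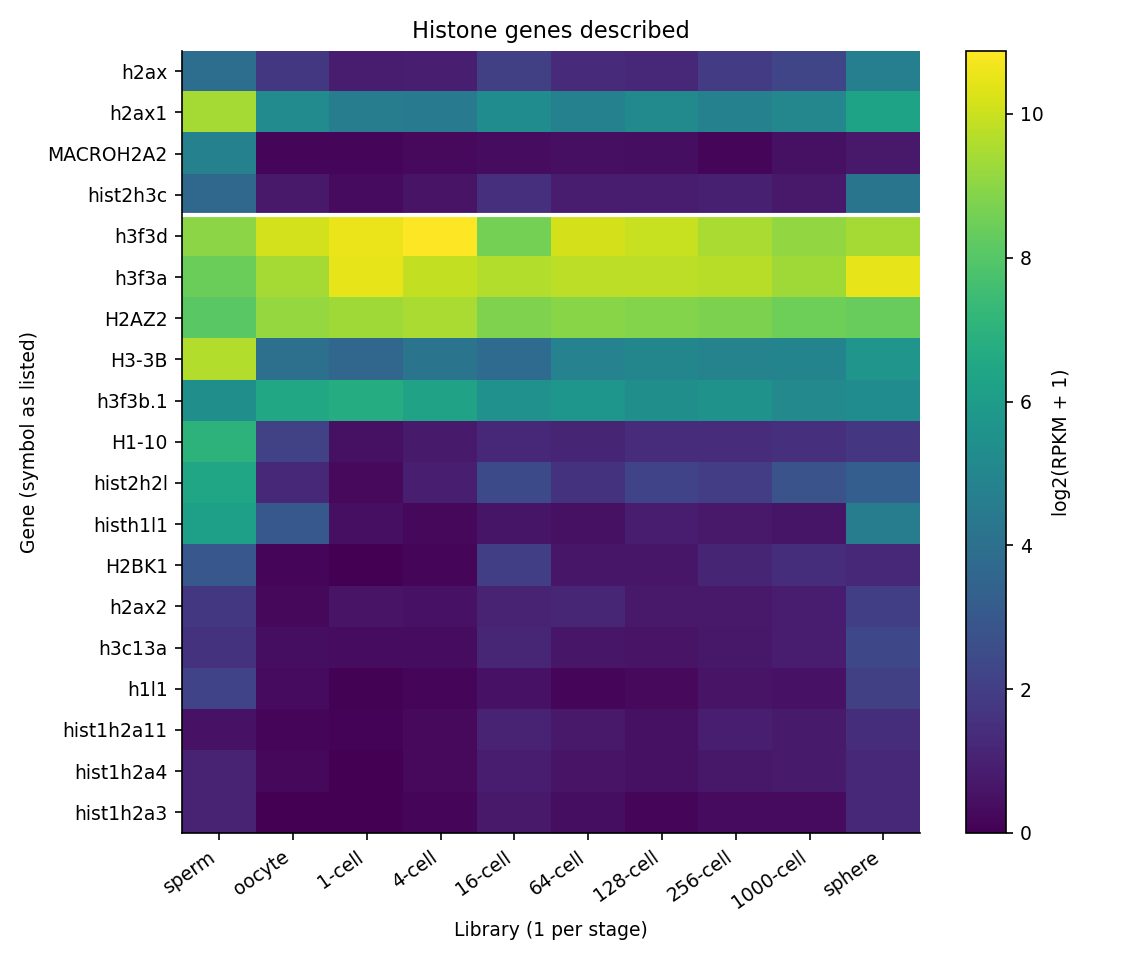
Levels of 19 histone genes of the table as log2(RPKM + 1), with the 4 chosen genes above the white line and the other 15 below it ordered by mean level; columns are the libraries, 1 per stage. The H3.3 genes h3f3d and h3f3a and the gene listed as H2AZ2 are high in every library, while h2ax1 (675 RPKM) and MACROH2A2 (26.5 RPKM) are brightest in sperm.

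The 1-cell library was set against the oocyte to follow the genes over fertilisation. Neither of the 2 members measured passed the rule, beside 4.46% of all 10373 genes, and hist2h3c and MACROH2A2 were below 1 RPKM in both libraries. From its 2.42 RPKM in oocyte h2ax could not have passed downward, since even a complete loss falls short of the rule. The level of h2ax was 0.779 RPKM in 1-cell against 2.42 in oocyte, which is 3.11-fold lower (1.85 to 5.51). That of h2ax1 was 23.5 against 37.4 RPKM, 1.59-fold lower (1.46 to 1.73). The sign for h2ax1 depended on the scaling: its log2 difference was -0.65, and 0.13 under median ratio scaling, while that of h2ax stayed below 0 (-0.94 and -0.61). The linker histone gene histh1l1 was the one of 8 measured other histone genes past the rule, as 3.4% of all genes were downward. It had 0.361 RPKM in 1-cell against 7.03 in oocyte (19.5-fold lower, 12.4 to 32.6). H1-10, another linker histone gene, was 8.84-fold lower (5.54 to 14.9), with 0.388 against 3.43 RPKM, and fell short of the rule. Upward, 0 of the 8 passed, beside 1.06% of all genes.

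The 128-cell library was set against 1-cell to follow the genes through the first divisions. Again neither of the 2 measured members passed the rule, beside 28.2% of 12336 genes, or 25.7% counting the higher ones alone. From its 0.779 RPKM in 1-cell h2ax could not have passed downward, and it was measured through 128-cell alone. The level of h2ax was 1.31 RPKM in 128-cell against 0.779 in 1-cell (1.68-fold, 0.993 to 2.98), and that of h2ax1 was 36.0 against 23.5 RPKM (1.53-fold, 1.42 to 1.66). Their log2 differences, 0.38 and 0.59, lay under the median of 1.13 for all genes, and under median ratio scaling they turned to -0.58 and -1.08. In the 7 cleavage libraries MACROH2A2 reached at most 0.402 RPKM and hist2h3c 1.79 RPKM, too low to pass in any step between them. h2ax reached at most 3.84 RPKM there, so it could have passed only if it were almost absent from the neighbouring library. Of the 4, h2ax1 alone stood well above these limits. No member passed the rule in any step between neighbouring embryo libraries before sphere, with 1 to 3 of the 4 measured in each. The share of all genes that did was 2.5% for 4-cell against 1-cell, 11.2% for 16-cell against 4-cell, 0.985% for 64-cell against 16-cell, 0.114% for 128-cell against 64-cell, 0.024% for 256-cell against 128-cell and 0.134% for 1000-cell against 256-cell. Of these steps, 16-cell against 4-cell had the largest ratios for h2ax (3.49-fold, 2.57 to 4.78), h2ax1 (1.75-fold, 1.65 to 1.86) and hist2h3c (3.64-fold, 2.30 to 5.89). In the next one, 64-cell against 16-cell, all 3 were lower again, by 2.17-fold, 1.43-fold and 2.15-fold. The median log2 difference of all genes also rose and then fell, with 0.74 for 16-cell against 4-cell and -0.20 for 64-cell against 16-cell.

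A line fitted to the 7 cleavage libraries tested whether levels followed the number of cells. The level of h2ax rose, by 0.12 (SE 0.045) in log2(RPKM + 1) per doubling of cell number (limma, adjusted p = 0.0419 over 12720 genes, Benjamini-Hochberg). For h2ax1 the slope was 0.042 (SE 0.039, limma adjusted p = 0.359), while hist2h3c and MACROH2A2 were too low to enter the fit. Of all genes tested, 52.7% rose and 9.16% fell, and under median ratio scaling 27% rose and 29.6% fell. The median slope of all genes was 0.116, so the slope of h2ax was near that of the middle gene. The rise of h2ax was lost when 1-cell (adjusted p = 0.203), 4-cell (0.111), 64-cell (0.052), 256-cell (0.0908) or 1000-cell (0.183) was left out of the limma fit. Under median ratio scaling the slope of h2ax was 0.018 (limma adjusted p = 0.696) and that of h2ax1 turned to -0.13 (limma adjusted p = 0.0229).

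**Figure D3:**
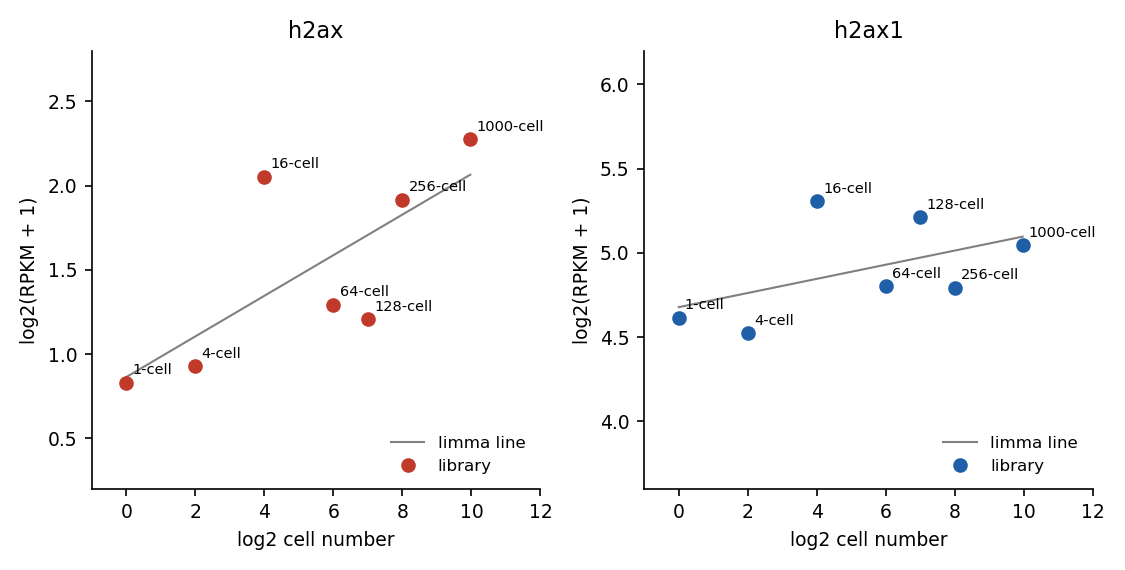
log2(RPKM + 1) of h2ax (left) and h2ax1 (right) in the 7 cleavage libraries against log2 cell number, with the fitted limma line; each point is 1 library and both panels span the same height. The slope is 0.12 for h2ax and 0.042 for h2ax1, and 16-cell lies above both lines.

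Sphere was set against 1000-cell to look at the genes over the onset of large-scale transcription from the embryo's own genome, which in zebrafish falls around these stages. Of the 3 members measured, h2ax and hist2h3c were at least 4-fold higher in sphere and 0 were lower, beside 4.06% of all 13983 genes higher and 0.415% lower. hist2h3c had 17.7 RPKM in sphere against 0.676 in 1000-cell, 26.1-fold higher (17.4 to 41.1). h2ax had 24.8 against 3.84 RPKM, 6.45-fold higher (5.48 to 7.63). From its 1000-cell level hist2h3c could not have passed downward, and it was measured through sphere alone. h2ax could have done so only by an almost complete loss. The level of h2ax1 was 77.5 RPKM in sphere against 32.0 in 1000-cell, 2.42-fold higher (2.30 to 2.55) and short of the rule. MACROH2A2 remained below 1 RPKM in both, with 0.663 in sphere against 0.402 in 1000-cell (1.65-fold, 1.18 to 2.31).

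The log2 differences were 3.48 for hist2h3c, 2.41 for h2ax and 1.25 for h2ax1, against a median of -0.026 over all genes. Set against 256-cell in place of 1000-cell, the same 2 genes passed (beside 4.21% of all genes higher), hist2h3c at 18.5-fold (12.7 to 27.8) and h2ax at 8.93-fold (7.30 to 11.0). All 4 members were higher in sphere than in every cleavage library, MACROH2A2 at under 1 RPKM throughout, as were 10 of the 15 other histone genes and 29.1% of all 14431 genes at 1 RPKM or more in some of these libraries. For h2ax and hist2h3c the level in sphere was at least 4-fold above the highest of the 7 cleavage libraries by the same rule, as it was for histh1l1 and for 3.68% of the same 14431 genes. With a pseudocount of 5 neither gene passed the rule against 1000-cell (1.75 for h2ax and 1.997 for hist2h3c).

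Among the other 15 histone genes, all measured here, histh1l1 alone passed, beside 4.06% of all genes higher and 0.415% lower. It had 23.1 RPKM in sphere against 0.515 in 1000-cell (44.9-fold, 34.0 to 60.5). This gene, h1l1, h2ax2, h3c13a, hist1h2a11, hist1h2a3 and hist1h2a4 were measured through sphere alone. From their 1000-cell levels these genes, H1-10 and H2BK1 could not have passed downward. The summed level of 3 linker histone genes, H1-10, h1l1 and histh1l1, was 28.6 RPKM in sphere against 2.71 in 1000-cell. It was 203 RPKM in sperm against 10.7 in oocyte, and lay between 0.804 and 2.77 RPKM over the cleavage libraries. Most of the sum in sphere was histh1l1. H1-10 had 2.29 RPKM in sphere against 1.73 in 1000-cell (1.33-fold, 1.08 to 1.63), and h1l1 had 3.20 against 0.466 RPKM. The H3 gene h3c13a, which lies near hist2h3c in the RefSeq annotation, had 4.19 RPKM in sphere against 0.768 in 1000-cell and did not pass. The 3 genes with hist1h2a names summed to 4.36 RPKM in sphere against 1.69 in 1000-cell.

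Sphere was also set against the oocyte, the starting point of the maternal store. hist2h3c was 26.8-fold higher in sphere (16.8 to 45.5) and h2ax 10.2-fold (8.17 to 13.0), so 2 of the 3 measured members passed upward, beside 25.1% of 14367 genes. From their oocyte levels neither hist2h3c nor h2ax could have passed downward, and hist2h3c was measured through sphere alone. Of the other 15 histone genes, all measured, 0 passed, beside 25.1% of all genes higher and 5.95% lower. With levels rescaled as TPM, 6 of the 15 were higher. H2BK1, hist2h2l, h1l1, h2ax2, h3c13a and the genes with hist1h2a names had at most 1.40 RPKM in oocyte and could not have passed downward. h2ax1 had 77.5 RPKM in sphere against 37.4 in oocyte (2.07-fold, 1.97 to 2.19), a log2 difference of 1.03 that came to 0.029 under median ratio scaling. Sphere serves as the first library here and in the comparison with 1000-cell, and the oocyte as the second here and for sperm, so these comparisons are not independent of each other. Against sperm, sphere had 8.71-fold less h2ax1 (8.46 to 8.97) and 40.0-fold less MACROH2A2 (32.9 to 49.1), and both passed the rule downward, as did 18.6% of genes. For h2ax and hist2h3c sphere was 1.75-fold and 1.51-fold above sperm, and neither passed.

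**Figure D4:**
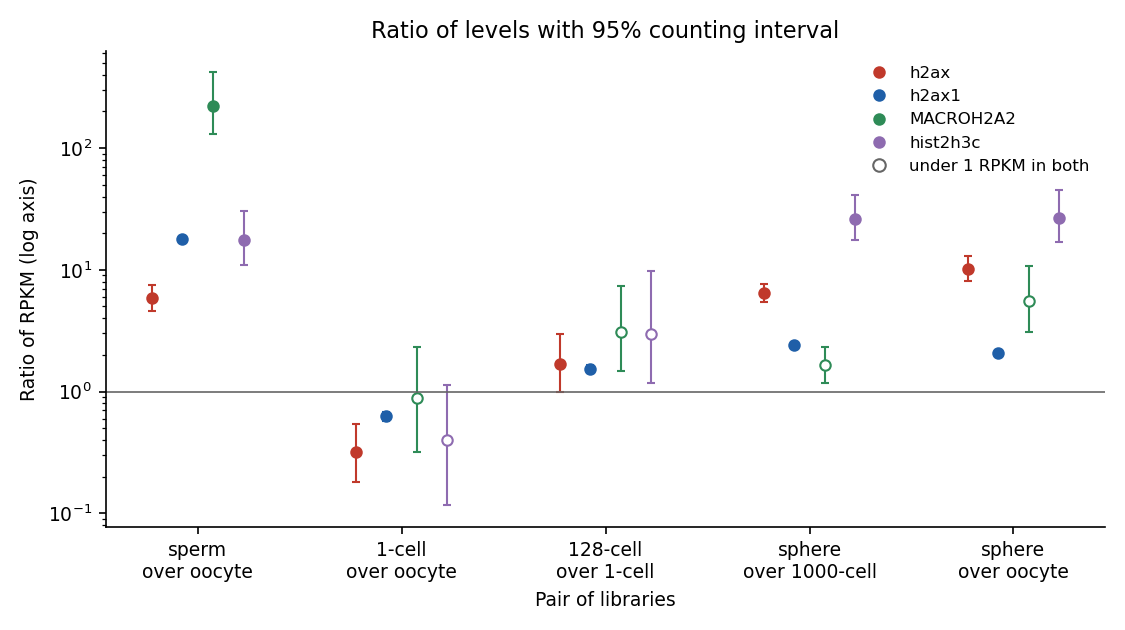
Ratio of RPKM between the libraries named on the horizontal axis, on a log axis, for the 4 genes, with exact 95% counting intervals; open points are genes under 1 RPKM in both libraries and the line marks a ratio of 1. All 4 genes lie above 1 for sperm over oocyte, and h2ax (6.45) and hist2h3c (26.1) lie above h2ax1 (2.42) for sphere over 1000-cell.

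The H2A.X genes h2ax and h2ax1 differed from each other in how far they changed. The RPKM of h2ax1 divided by that of h2ax was 47.7 in sperm, 15.4 in oocyte, 30.2 in 1-cell, 24.4 in 4-cell, 12.2 in 16-cell, 18.5 in 64-cell, 27.5 in 128-cell, 9.63 in 256-cell, 8.34 in 1000-cell and 3.13 in sphere. Sperm thus had the highest ratio and sphere the lowest, with an interval in sphere (2.94 to 3.33) below that of every other library. No order ran through cleavage, since 128-cell (21.9 to 35.1) lay above 16-cell (10.3 to 14.6). The further H2A.X gene h2ax2, which is not among the 7 and enters neither this ratio nor the sum that follows, had 2.40 RPKM in sperm against 0.169 in oocyte and 3.0 in sphere against 0.847 in 1000-cell (3.54-fold, 2.29 to 5.68), and passed the rule in neither pair. Of the summed RPKM of h2ax, h2ax1 and MACROH2A2, h2ax1 took 75.3% in sphere, against 88.3% to 96.4% in the other 9 libraries, and h2ax took 24.1% in sphere. MACROH2A2 took 3.71% in sperm and 0.644% in sphere. With H2AZ2 added to the sum, that gene took 76.1% in sphere, 27.6% in sperm and 93.4% in oocyte, and h2ax1 took 18.0%, 68.3% and 6.18% of it in the same libraries.

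**Figure D5:**
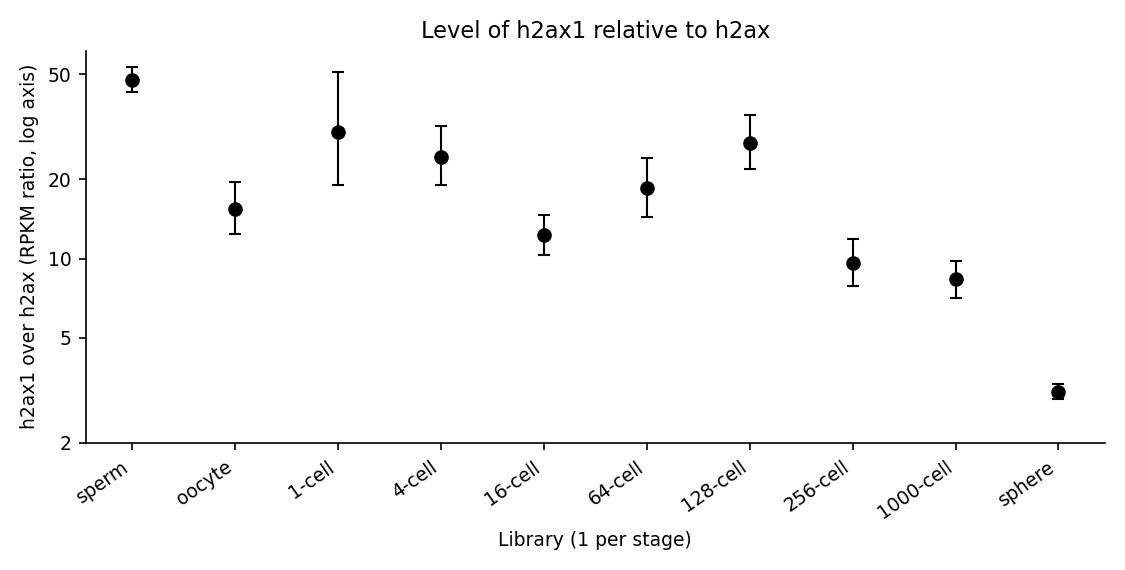
RPKM of h2ax1 divided by RPKM of h2ax in each library, on a log axis, with exact 95% counting intervals; 1 point per library. The ratio is highest in sperm (47.7) and lowest in sphere (3.13).

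Over the 10 libraries, Pearson's r of log2(RPKM + 1) was 0.95 between h2ax and hist2h3c and 0.94 without sperm. It was 0.96 between h2ax1 and MACROH2A2, and 0.74 without sperm. Without sperm, h2ax1 had a higher r with h2ax (0.91) and hist2h3c (0.90), with which it had 0.74 and 0.80 over all 10. MACROH2A2 had 0.58 with h2ax and 0.65 with hist2h3c, and 0.76 and 0.79 without sperm. These are descriptions over libraries of which 1 or 2 stand far from the rest. Among 9256 other genes with a symbol of their own and at least 5 RPKM in some library, those most like h2ax by the same measure were klf2a (r = 0.99), pim2 (0.98) and marcksl1b (0.98). For hist2h3c they were srsf5a, GSC and cdkn1ca (each 0.99). All 6 had their highest level in sphere. For h2ax1 they were ZNF410 (1.00), DLD (0.99) and si:dkeyp-117b11.2 (0.99), and for MACROH2A2 dcdc2b, ldhbb and si:ch211-222n4.2 (each 1.00). These 6 were all highest in sperm, which was the highest library for 43.2% of 18972 genes.

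Histone chaperones escort histones to and from DNA, and 26 of those listed were in the table. In sperm against oocyte 4 were at least 4-fold higher and 6 lower, beside 31.5% and 9.08% of all genes (1 and 10 under median ratio scaling, beside 19.6% and 17.7%), with a median log2 difference of 0.063 against 1.22 for all genes. CHAF1B, a subunit of the chaperone that loads H3 at replication forks, had 42.6 RPKM in sperm against 0.469 in oocyte (90.7-fold, 71.2 to 118). NASP, which holds free H3 and H4, had 58.3 against 847 RPKM and was 14.5-fold lower in sperm (14.1 to 14.9). Over the cleavage libraries 12 of 26 rose and 4 fell by the limma fit, beside 52.7% and 9.16% of all genes, and under median ratio scaling 6 rose and 12 fell, beside 27% and 29.6%. CHAF1B rose with a slope of 0.53 (SE 0.103, adjusted p = 0.0033), and RBBP4, a histone-binding subunit of several complexes, fell with a slope of -0.38 (SE 0.034, adjusted p = 0.00103). In sphere against 1000-cell 0 of 26 passed in either direction, beside 4.06% of all genes higher and 0.415% lower. The largest rise was that of ANP32A, with 111 RPKM in sphere against 38.8 in 1000-cell (2.87-fold, 2.80 to 2.95). The largest fall was that of HIRA, with 12.5 against 24.2 RPKM (1.94-fold lower, 1.87 to 2.01). NASP had 231 RPKM in sphere against 366 in 1000-cell.

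Of 15 genes for the complexes that exchange H2A.Z, 5 were higher and 0 lower in sperm than in oocyte, and 9 rose and 1 fell over the cleavage libraries by the limma fit. Both counts of higher or rising genes are near the shares of all genes, 31.5% and 52.7%. In oocyte srcap, ING3, kat5a and INO80 had at most 2.08 RPKM and could not have passed downward. Of these, kat5a and INO80 were measured through sperm alone. Under median ratio scaling the counts were 2 and 1 in the gametes, beside 19.6% and 17.7% of all genes. Over cleavage they were 4 and 2, beside 27% and 29.6%. In 128-cell against 1-cell 7 of the 15 were higher and 0 lower, beside 25.7% and 2.43% of all genes. In 1-cell srcap, ING3, INO80, INO80B, kat5a and ZNHIT1 had at most 2.70 RPKM and could not have passed downward. Of these, srcap, INO80 and kat5a were measured through 128-cell alone. Under median ratio scaling, which shifted the median of all genes by -1.43, 2 and 2 passed. Of the 3014 genes that passed under it, 31.9% were higher. Their share of all genes measured was not worked out for this pair. The gene srcap, for the ATPase of an exchange complex, had 22.0 RPKM in 128-cell against 0.872 in 1-cell (25.2-fold, 22.8 to 28.0). In the same pair ING3 had 42.9 against 1.40 RPKM. Of 9 genes for H2A.X phosphorylation and its readers 8 were measured in sperm against oocyte. Of these, 2 were higher and 1 lower, beside 31.5% and 9.08% of all genes (1 and 1 under median ratio scaling). ATM, mdc1, PRKDC and ATR had at most 2.39 RPKM in oocyte and could not have passed downward. The 2 higher genes, ATM and mdc1, were measured through sperm alone, as was PRKDC. The reader gene mdc1 had 10.9 RPKM in sperm against 0.401 in oocyte (27.2-fold, 22.8 to 32.9). The checkpoint kinase gene chek2 had 10.9 RPKM in sperm against 65.5 in oocyte and was 5.98-fold lower (5.55 to 6.45). Over cleavage 5 of 8 rose and 1 fell, beside 52.7% and 9.16% of all genes, and 3 and 3 did under median ratio scaling. In sphere against 1000-cell 0 of 15 and 0 of 8 passed, beside 4.06% of all genes higher and 0.415% lower.

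For the making of histone mRNA and its 3 prime end, 10 of 11 genes in the table were measured. Of these, 3 were higher and 1 lower in sperm than in oocyte, beside 31.5% and 9.08% of all genes. The one lower was slbp2, for a protein that binds the histone stem-loop, with 5.51 RPKM in sperm against 131 in oocyte (23.8-fold, 21.4 to 26.6). Over cleavage 8 of 10 rose and 1 fell by the limma fit, beside 52.7% and 9.16% of all genes. Under median ratio scaling 1 and 2 did, beside 27% and 29.6%, and 2 were higher and 2 lower in sperm, beside 19.6% and 17.7%. In sphere against 1000-cell none of the 10 passed the rule, beside 4.06% of all genes higher and 0.415% lower. The largest differences were HINFP, a transcription factor of histone genes in mammals, at 14.2 RPKM in sphere against 50.1 in 1000-cell (3.53-fold lower, 3.41 to 3.67), and slbp2 at 29.8 against 96.8 RPKM (3.25-fold lower, 3.13 to 3.38). The medians of the 4 lists in that comparison were 0.11, 0.20, -0.17 and -0.17, in the order given here, against -0.026 over all genes.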

How the data were processed

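Libraries were prepared from total RNA (TruSeq RNA kit, v2) and read in 50 bp single reads, per the labels' protocols. The authors deposited 1 table of RPKM values, with neither log scale nor pseudocount. The submitters' processing notes name TopHat2 2.0.9 and the build Zv9. No counter, annotation release or strand setting is given in the sources used here.

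Whole reads and gene lengths were worked back from the RPKM values: within a tolerance of 0.02 reads this succeeded for 23901 of 23904 genes above 0 in at least 4 libraries, and on simulated data for 99.3% of 1500 genes with all reads equal. From them came exact Poisson intervals for single levels and exact Clopper-Pearson intervals for ratios of levels (scipy 1.17.1). At these depths 3 reads in 1 kilobase amount to 0.0263 RPKM in 4-cell and 0.0794 RPKM in 1-cell. Each of the 10 libraries is its own group, so the 5 comparisons of libraries have no p-value. A gene passed at a difference of 2 in log2(RPKM + 1) with at least 1 RPKM in either library.

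The trend used limma 3.58.1 (lmFit, eBayes with trend, R 4.3.3) on log2 cell number for genes at 1 RPKM or more in at least 2 of 7 libraries, with 5 residual degrees of freedom, adjusted over all genes and called under 0.05. It takes stages as draws around a straight line. Its test on simulated data used independent noise around such a line, with no shift shared by a whole library. The count test on recovered reads was not run for pairs, since 1 library per stage leaves no spread.

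Symbols came from the name table, which named 20901 genes. The chosen genes, lists and markers were settled with earlier results of these data known. The genes named are the chosen ones, the other histone genes, for each list the 2 largest changes in each direction, and the 3 genes most like each chosen gene. One other histone gene of the table is not reported here. Gene neighbours came from RefSeq. Alternatives were pseudocounts of 0.1 and 5, no filter or 5 RPKM, median ratio scaling, TPM, stage rank, leaving out each library, and, chosen after seeing the data, other libraries in place of 1-cell and 1000-cell. For the H2A sum they were reads in place of RPKM and, chosen after seeing the data, H2AZ2 added.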

Additional observations from a re-analysis of the deposited data

How the results depend on the processing

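No paired analysis was possible because each stage has 1 library and all carry the same replicate number. The count of genes passing the rule for sperm against oocyte, 7040, became 10871 with a pseudocount of 0.1 and 3224 with 5. For 1-cell against oocyte, 463 became 1244, 128, 795 as TPM and 736 with 4-cell in place of 1-cell. For 128-cell against 1-cell, 3474 became 5692, 1229 and, with 4-cell in place of 1-cell, 880. For sphere against 1000-cell, 626 became 1254, 206 and, as TPM, 1016, and for sphere against oocyte 4458 became 7033 and 1972. With a pseudocount of 5 the chosen genes passing numbered 2 for sperm against oocyte and 0 for sphere against 1000-cell. In the trend 1 chosen gene passed, and 0 did with no filter (adjusted p = 0.103 for h2ax in limma), at 5 RPKM, where h2ax was not tested, and by stage rank (adjusted p = 0.0511 in limma). Leaving out 1 library gave 0 to 1 chosen genes and 2015 to 9909 genes in all, 2015 without 1-cell, against 7864. Of the genes passing the trend, 47.7% rose under median ratio scaling in place of 85.2%.

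Median ratio scaling turned the slope of h2ax1 to -0.13. It shifted the median difference of all genes by -0.83 for sperm over oocyte, where the share of passing genes that was higher became 52.5% in place of 77.6%. For 1-cell over oocyte the shift was 0.72 (34.8% in place of 23.8%), for 128-cell over 1-cell -1.43 (31.9% in place of 91.4%), for sphere over 1000-cell 0.047 (92.4% in place of 90.7%) and for sphere over oocyte -0.81 (50.1% in place of 80.8%). It also turned the sign of the differences of hist2h3c and MACROH2A2 in 128-cell against 1-cell and of MACROH2A2 in 1-cell against oocyte, all below 1 RPKM; no cause was tested. Depth limits the lowest values most, with 5 reads for hist2h3c and 8 for MACROH2A2 in 1-cell. Counted in reads, the share of h2ax1 in the H2A sum was 90.8% in sperm, 95.1% in oocyte, 93.4% in 16-cell, 92.3% in 256-cell, 90.1% in 1000-cell and 80.8% in sphere, and within the counting interval elsewhere. With H2AZ2 added it was 68.3% in sperm, 6.18% in oocyte, 3.55% in 1-cell, 2.97% in 4-cell, 8.07% in 16-cell, 5.22% in 64-cell, 7.09% in 128-cell, 5.85% in 256-cell, 8.07% in 1000-cell and 18.0% in sphere.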

Other observations

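Genes that lie next to the chosen ones in the RefSeq annotation did not all have the same profile. On either side of h2ax, c2cd2l had 6.01 RPKM in sphere against 6.29 in 1000-cell, and dpagt1 had 12.6 against 20.6 RPKM, where h2ax had 24.8 against 3.84. In the gametes both neighbours were high in sperm, with 66.1 RPKM in sperm against 0.877 in oocyte for c2cd2l and 91.0 against 1.20 for dpagt1. Beside h2ax1, the histone gene hist2h2l had 84.7 RPKM in sperm against 1.40 in oocyte (60.5-fold, 47.1 to 78.9) and 8.59 in sphere against 5.90 in 1000-cell, and zpr1 had 20.9 RPKM in sperm against 4.83 in oocyte. Beside MACROH2A2, pitx3 had 2.01 RPKM in sperm and was listed at 0 in oocyte.

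The 4 H3.3 genes, whose product replaces H3 outside DNA replication, summed to 1673 RPKM in sperm, 1902 in oocyte, 3053 in 1-cell, 2925 in 4-cell, 1250 in 16-cell, 2108 in 64-cell, 1979 in 128-cell, 1628 in 256-cell, 1264 in 1000-cell and 2169 in sphere. The dip in 16-cell came with h3f3d, which had 393 RPKM in 16-cell against 1883 in 4-cell (4.79-fold lower, 4.73 to 4.85) and 1142 in 64-cell. Over cleavage h3f3a and h3f3b.1 fell and H3-3B rose by the limma fit, with slopes of -0.084 (adjusted p = 0.0424), -0.15 (adjusted p = 0.00763) and 0.14 (adjusted p = 0.0147). As TPM the fall of h3f3a no longer passed (limma adjusted p = 0.172), and under median ratio scaling the slope of H3-3B was -0.021 (limma adjusted p = 0.754).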
